A study of Homo sapiens with 2 samples.

Results

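The genes described here are the matrix metalloproteinases (MMPs), the ADAM and ADAMTS proteases and their inhibitors, the TIMPs, in the erlotinib-resistant lung cancer line HCC4006ER and its parental line HCC4006. A gene was a member when its symbol was MMP, ADAM, ADAMTS or TIMP followed only by a number and at least 1 probe set listed that symbol alone. This rule found 64 of the 19775 genes measured, from 145 probe sets. They were 22 MMPs, 20 ADAMs, 18 ADAMTS genes and 4 TIMPs, and ADAM5 and ADAM6 among them are annotated as pseudogenes. Each gene was read from 1 probe set, the one with the highest mean log2 signal.

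HCC4006 is an established EGFR-mutant human NSCLC cell line that carries a deletion in exon 19 of EGFR and is sensitive to erlotinib, an EGFR-TKI. HCC4006ER cells carry the same deletion and were selected from HCC4006 cells over 3 months in erlotinib, at 3 nM first and up to 4 μM, and their labels describe them as erlotinib resistant with an EMT phenotype. Both lines were grown for 48 hours in medium with 10% FBS with no further treatment, and RNA of 3 preparations per line was mixed and hybridized to 1 Affymetrix HG-U133 array. Each cell line therefore has 1 array and no replicate, no test was possible, and every difference below is a value for these arrays.

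A background level was set for each array at the 95th percentile of 127 probe sets of olfactory and bitter taste receptors, genes with no known use in lung cancer. It was 91.6 on the HCC4006ER array and 96.2 on the HCC4006 array. The MAS5 signals are linear intensities, and a level is compared only within a probe set. Where only the dimmer signal lay under the level, the level took its place and the fold is written with "at least". Differences of 1.5-fold or more were counted. Of the 127 receptor probe sets, 48.8% lay past that size by the measured ratio, so signals under the level carry no fold here. Between probe sets of 1 gene, the pooled SD of the log2 fold was 0.27 over 5264 genes and 0.27 over the 9 members that could be compared in this way. It holds no variation of cultures or arrays. The 18 probe sets of hybridization controls had ratios of the HCC4006ER signal to the HCC4006 signal of 0.96 to 1.43.

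The arrays are named by their labels, and the cell types were checked first. All 7 epithelial markers were above background on both arrays and within 1.5-fold, among them E-cadherin (CDH1) at 11041 on the HCC4006ER array and 10469 on the HCC4006 array and EPCAM at 11642 on the HCC4006ER array and 11129 on the HCC4006 array. The resistant line is labelled as having undergone EMT, and these nearly equal signals go against the loss of epithelial adhesion genes that the label implies. Genes gained in EMT, such as vimentin and N-cadherin, were not read here, so the label as a whole was not checked. Every HCC4006ER value below is therefore a value of the array labelled HCC4006ER. Of 11 fibroblast markers, 1 was above the level on the HCC4006ER array and 2 on the HCC4006 array. COL1A1 was above it on both, at 965 on the HCC4006ER array and 591 on the HCC4006 array. THY1 was above it on the HCC4006 array alone, at 40.1 on the HCC4006ER array and 125 on the HCC4006 array, at least 1.37-fold lower. LUM, DCN and COL3A1 were under the level on both. Leukocyte markers were above the level for 0 of 7 genes on the HCC4006ER array and for 1 of 7 on the HCC4006 array. Of 5 endothelial markers PECAM1 alone was above the level, at 229 on the HCC4006ER array and 244 on the HCC4006 array. With RNA from whole cultures, fewer cells of a type and less RNA per cell cannot be told apart.

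MMPs are zinc proteases that cut collagens, laminins and other matrix proteins, and some are held at the cell surface by a membrane anchor. ADAMs are membrane proteases with a disintegrin domain. Several of them release the outer parts of other membrane proteins, including ligands of EGFR, and some have lost the zinc-binding motif and do not cut. ADAMTS proteases are secreted, bind the matrix through thrombospondin repeats and cut proteoglycans, procollagens and other substrates. TIMPs bind the active site of these enzymes, and TIMP2 also joins MMP14 in the complex that activates MMP2. In carcinomas several of these genes are known for their part in invasion and in the release of growth factors.

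Of the 64 members, 34 (53.1%) were above the level on at least 1 array, beside 60.2% of all 19775 genes. The other 30 members were under it on both. On the HCC4006ER array 25 members were above it and on the HCC4006 array 30 were, with 21 above it on both. Among all genes, 11260 were above it on the HCC4006ER array and 11485 on the HCC4006 array. Past 1.5-fold, 6 of the 34 members were higher on the HCC4006ER array, beside 7.99% of the 11896 genes above background, and 7 were lower, beside 11.2%. In either direction these 13 members made up 38.2% of the 34, beside 19.1% of all genes above background. Of the 13, 8 were above the level on both arrays and 5 rest on a bound, and the brighter signal of 4 was under 2 times its level. With a signal under the level raised to it, the median log2 fold was -0.19 over the 34 members and -0.04 over all genes above background. Over the 21 members above the level on both arrays it was -0.046, beside -0.028 over all such genes. By the ratio of signals as deposited the median of the 34 was -0.20. Of the 21 members above the level on both arrays, 4 were higher, beside 7.71% of all such genes, and 4 were lower, beside 10.2%. With equal array medians the split among all genes was 1475 higher and 880 lower, against 950 higher and 1328 lower as deposited, and the members then had 6 higher and 3 lower. These shares could not be tested with 1 array per line.

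On these arrays the counts by family leaned in different directions, a difference that was not tested. Of 9 ADAMTS genes above background, 4 were higher past 1.5-fold on the HCC4006ER array and none was lower. Of 10 ADAMs, 4 were lower and none was higher, beside 11.2% lower and 7.99% higher among all genes above background. The MMPs had 1 of 12 higher and 2 lower, and of 3 TIMPs 1 was higher and 1 was lower. Equal array medians move every log2 fold up by 0.14, so no higher call could be lost that way. The ADAMTS count was then again 4 higher and none lower. Of the ADAMs only ADAM19 was then lower, and of the MMPs 1 was higher and 1 lower. With the mean log2 fold over all probe sets of a gene, ADAMTS6 (-0.050) and ADAMTS9 (0.44) no longer passed. By that mean, which takes in probe sets under the level, ADAMTS15 (-0.63) passed as lower, while ADAMTS1 (2.25) and ADAMTS12 (1.22) stayed higher. With a signal under the level raised to it, the median log2 fold was 0.13 for the ADAMTS genes, -0.42 for the ADAMs, -0.26 for the MMPs and -0.49 for the TIMPs. By the ratio of signals as deposited, under the level or not, it was 0.31 for the ADAMTS genes and -0.62 for the ADAMs.

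**Figure D1:**
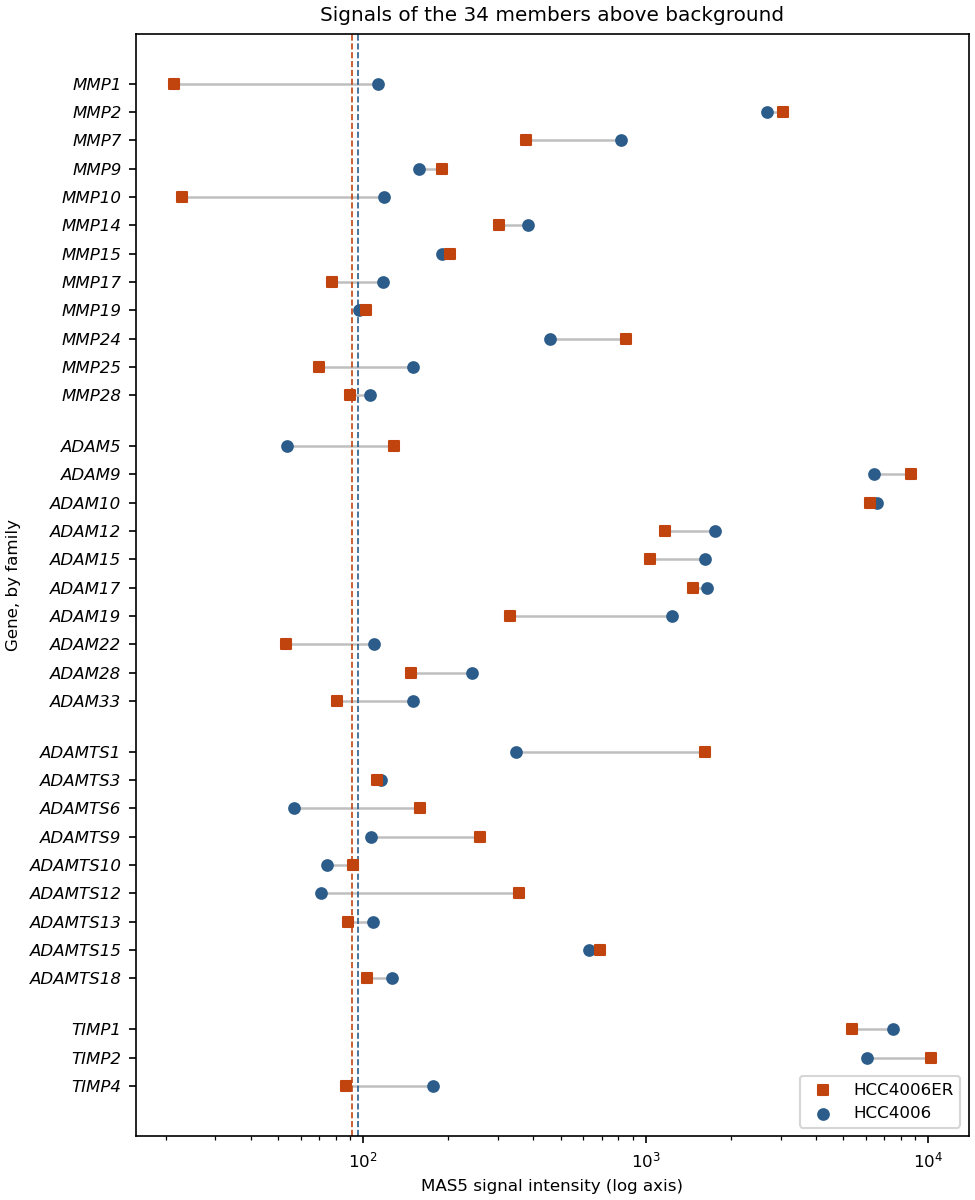
MAS5 signal intensity on a log axis for the 34 members above background on at least 1 array, by family, with squares for the HCC4006ER array and circles for the HCC4006 array, and dashed lines at the background levels, 91.6 for HCC4006ER and 96.2 for HCC4006. Each gene is read along its own row, since signals are not comparable between rows, and ADAMTS1 and ADAM19 have the widest gaps among the 21 genes above the levels on both arrays.

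ADAMTS1, a secreted protease that cuts the proteoglycans aggrecan and versican, had a signal of 1627 on the HCC4006ER array and 348 on the HCC4006 array. It was 4.68-fold higher (log2 fold 2.23), the largest difference among the members that were above the level on both arrays. A second probe set read 483 on the HCC4006ER array and 99.9 on the HCC4006 array, a log2 fold of 2.27, so both probe sets gave nearly the same size. ADAMTS5, the gene next to ADAMTS1 on chromosome 21 and also an aggrecan-cleaving protease, was under the level in all 4 of its probe sets.

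ADAMTS12, a protease that cuts cartilage oligomeric matrix protein, read 355 on the HCC4006ER array and 71.2 on the HCC4006 array, where it was under the level. It was at least 3.69-fold higher. Its other probe set read 87.6 on the HCC4006ER array and 80.6 on the HCC4006 array, under the level on both, so the difference rests on 1 probe set.

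ADAMTS9, a relative of ADAMTS1 that also cuts versican, read 259 on the HCC4006ER array and 106 on the HCC4006 array, 2.43-fold higher. The HCC4006 signal lay just over the background level. A second probe set of ADAMTS9 went the other way, at 90.9 on the HCC4006ER array, under the level, and 132 on the HCC4006 array. Taken as a mean of its 4 probe sets, 2 of them under the level on both arrays, the log2 fold of ADAMTS9 was 0.44 and did not pass 1.5-fold.

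ADAMTS6 read 159 on the HCC4006ER array and 57.1 on the HCC4006 array and was at least 1.65-fold higher. Its 2 other probe sets were under the level on both arrays, and as a mean of all 3 the log2 fold was -0.050. The remaining ADAMTS genes above background lay within 1.5-fold. ADAMTS15, another proteoglycan-cleaving member, read 689 on the HCC4006ER array and 628 on the HCC4006 array, and the procollagen N-proteinase ADAMTS3 read 112 on the HCC4006ER array and 116 on the HCC4006 array. ADAMTS18 had a signal of 103 on the HCC4006ER array and 126 on the HCC4006 array. ADAMTS13, which cuts von Willebrand factor, was above the level only on the HCC4006 array, at 88.4 on the HCC4006ER array and 109 on the HCC4006 array, and ADAMTS10, a protease of the fibrillin matrix, only on the HCC4006ER array, at 92.3 against 74.6 on the HCC4006 array. No fold is given for ADAMTS10, whose signals lie so close to the levels.

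ADAM19, also called meltrin beta, is a membrane protease that can release neuregulins. Its signal was 330 on the HCC4006ER array and 1242 on the HCC4006 array. It was 3.76-fold lower (log2 fold -1.91), the largest difference toward HCC4006 among the members above the level on both arrays. A second probe set of ADAM19 read 42.2 on the HCC4006ER array and 37.2 on the HCC4006 array, under the level on both. The difference of ADAM19 therefore rests on 1 probe set.

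The 3 other ADAMs past 1.5-fold, all with the zinc-binding motif, read lower by a smaller margin. ADAM15, whose disintegrin domain binds integrins, read 1032 on the HCC4006ER array and 1619 on the HCC4006 array, 1.57-fold lower, and its second probe set had a log2 fold of -0.74. ADAM28 read 148 on the HCC4006ER array and 242 on the HCC4006 array, 1.64-fold lower. Its other probe sets were under the level on both arrays, and as a mean of all 4 its log2 fold was -0.40 and did not pass. ADAM33 read 80.6 on the HCC4006ER array, under the level, and 150 on the HCC4006 array, at least 1.63-fold lower. When the array medians were made equal, which moves every log2 fold up by 0.14, none of these 3 passed 1.5-fold, at -0.51 for ADAM15, -0.58 for ADAM28 and -0.57 for ADAM33.

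ADAM12, meltrin alpha, lay just outside the threshold. Its signal was 1170 on the HCC4006ER array and 1755 on the HCC4006 array, 1.499-fold lower, and with quantile normalization its log2 fold of -0.60 passed. The 2 other probe sets of ADAM12 above the level on both arrays had log2 folds of -0.48 and -0.05. Just inside the threshold stood ADAM15, and the next members outside it were TIMP1, with a log2 fold of -0.49, and ADAM9, with 0.44.

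ADAM10 and ADAM17 are the main sheddases of the family, and ADAM17, also called TACE, releases most EGFR ligands. ADAM10 read 6204 on the HCC4006ER array and 6609 on the HCC4006 array, a log2 fold of -0.09. ADAM17 read 1468 on the HCC4006ER array and 1652 on the HCC4006 array, a log2 fold of -0.17. Both lay within 1.5-fold in all 3 of their probe sets, and the sign of ADAM10 turned when the array medians were made equal. ADAM9, a further sheddase, read 8720 on the HCC4006ER array and 6440 on the HCC4006 array, a log2 fold of 0.44, with 0.43 in a second probe set.

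Of 6 measured ADAMs without the zinc-binding motif, ADAM22 was above the level on the HCC4006 array alone, at 53.3 on the HCC4006ER array and 109 on the HCC4006 array, at least 1.19-fold lower. Its 8 probe sets did not point one way, since another read 98.7 on the HCC4006ER array and 39.1 on the HCC4006 array. The pseudogene ADAM5 was above the level on the HCC4006ER array alone, at 129 on the HCC4006ER array and 53.9 on the HCC4006 array, at least 1.34-fold higher.

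**Figure D2:**
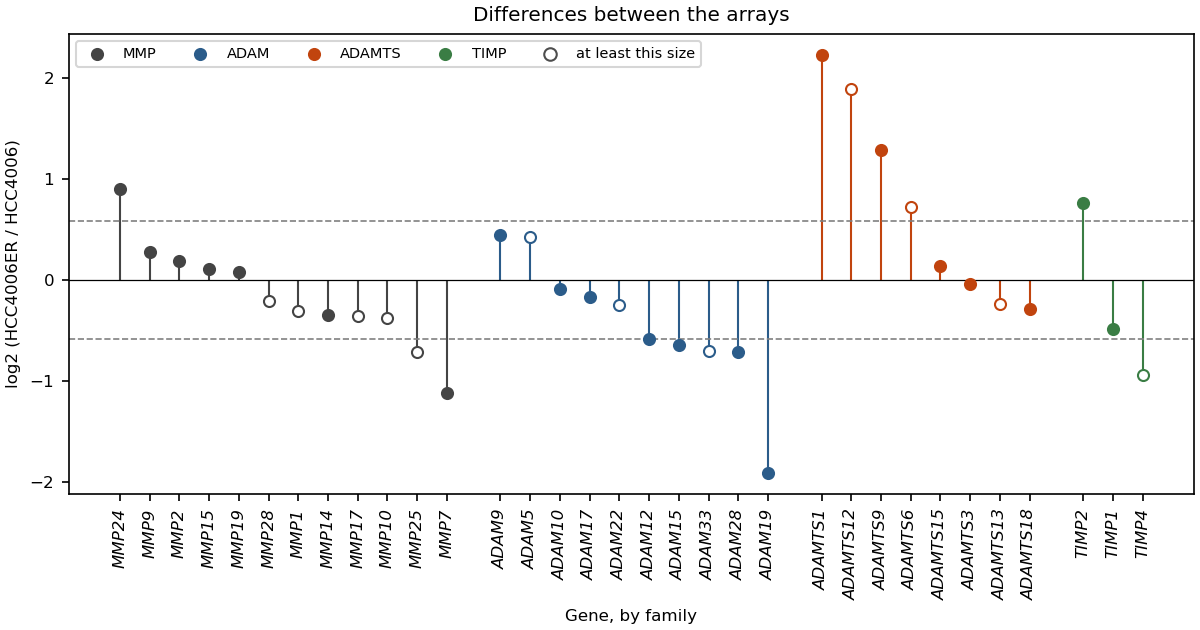
Log2 of the HCC4006ER signal over the HCC4006 signal for the members with a fold, sorted within each family; open circles are bounds, with the dimmer signal raised to its background level, and the dashed lines mark 1.5-fold. The 4 highest ADAMTS genes stand above the upper line, from 0.72 for ADAMTS6 to 2.23 for ADAMTS1, and ADAM19 stands lowest at -1.91.

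MMP7, matrilysin, is a small secreted protease of epithelial cells that lacks the hemopexin domain of most MMPs. It read 377 on the HCC4006ER array and 820 on the HCC4006 array in its only probe set, 2.17-fold lower (log2 fold -1.12). The gene stands in a run of 9 neighbouring MMP genes on chromosome 11, all of them measured. On the HCC4006ER array 1 of the 9, MMP7, was above background, and on the HCC4006 array 3 were, MMP7, MMP10 and MMP1.

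The interstitial collagenase MMP1 read 21.4 on the HCC4006ER array and 113 on the HCC4006 array. Stromelysin 2, MMP10, read 22.9 on the HCC4006ER array and 119 on the HCC4006 array. Both were under the level on the HCC4006ER array and only just over it on the HCC4006 array, so that the bounds, at least 1.24-fold lower for MMP1 and at least 1.30-fold lower for MMP10, did not pass 1.5-fold. The other 6 genes of the run, MMP20, MMP27, MMP8, MMP3, MMP12 and MMP13, were under the level on both arrays.

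**Figure D3:**
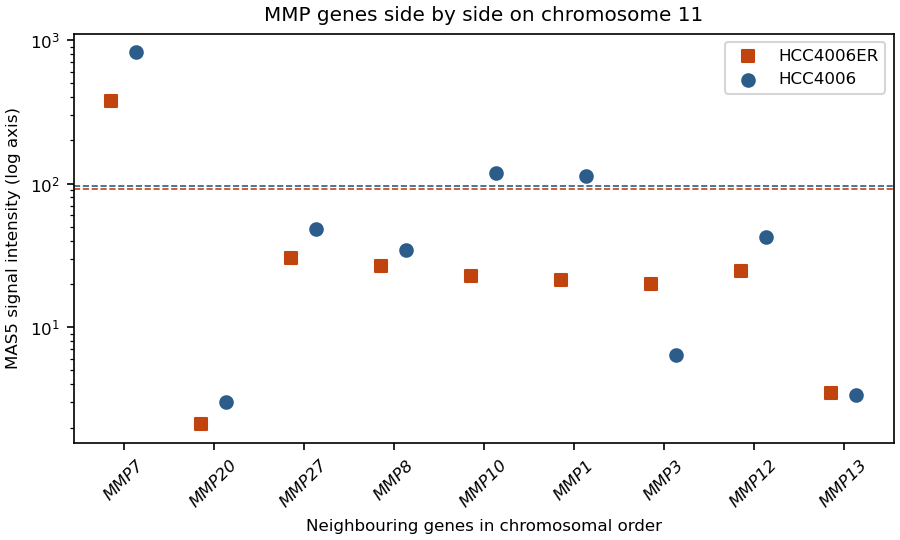
MAS5 signal intensity on a log axis for the 9 MMP genes that neighbour each other on chromosome 11, in chromosomal order, with squares for the HCC4006ER array, circles for the HCC4006 array and dashed lines at the background levels of 91.6 and 96.2. MMP7 is above the lines on both arrays, at 377 (HCC4006ER) and 820 (HCC4006), and MMP10 and MMP1 only on the HCC4006 array.

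The gelatinases, which cut denatured collagen and basement membrane collagen, differed little. MMP2 read 3053 on the HCC4006ER array and 2694 on the HCC4006 array, a log2 fold of 0.18, and MMP9 read 191 on the HCC4006ER array and 158 on the HCC4006 array, a log2 fold of 0.27. Of 6 membrane-type MMPs 5 were above background, with 1 higher and 1 lower past 1.5-fold. MMP14, the membrane protease that activates MMP2, read 302 on the HCC4006ER array and 384 on the HCC4006 array, a log2 fold of -0.34. Its other 2 probe sets above the level had log2 folds of -0.50 and 0.39, so its direction depended on the probe set.

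MMP24 was the 1 MMP higher past 1.5-fold. It is a membrane-type protease best known from the nervous system, and it read 853 on the HCC4006ER array and 459 on the HCC4006 array, 1.86-fold higher. Its second probe set, 279 on the HCC4006ER array and 243 on the HCC4006 array, had a log2 fold of 0.20, and the mean of both, 0.55, did not pass. The gene MMP24OS overlaps MMP24 in the RefSeq annotation, and its 4 probe sets had log2 folds of -0.73 to 0.02.

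MMP25, a membrane-type protease of leukocytes, read 70.0 on the HCC4006ER array, under the level, and 151 on the HCC4006 array, at least 1.64-fold lower. With equal array medians its log2 fold was -0.58 and no longer passed. The last 4 MMPs above background lay within 1.5-fold or had a bound under it. The membrane-type MMP15 read 203 on the HCC4006ER array and 190 on the HCC4006 array, and MMP17, anchored through a lipid, read 77.5 on the HCC4006ER array and 117 on the HCC4006 array. MMP19 read 102 on the HCC4006ER array and 96.5 on the HCC4006 array, and MMP28, epilysin, read 89.7 on the HCC4006ER array and 106 on the HCC4006 array. Each of these pairs lay near its level or nearly coincided.

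The 30 members under the level on both arrays, among them MMP3, MMP11, MMP12, MMP13, ADAM8, ADAMTS4, ADAMTS5 and TIMP3, read 2.11 to 89.6 on the HCC4006ER array and 1.72 to 85.5 on the HCC4006 array. Their medians were 25.7 on the HCC4006ER array and 33.2 on the HCC4006 array.

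The inhibitors went in different directions. TIMP2 read 10218 on the HCC4006ER array and 6057 on the HCC4006 array and was 1.69-fold higher (log2 fold 0.75). Its 2 other probe sets were higher too, with log2 folds of 0.94 and 0.43. TIMP1, a broad MMP inhibitor, read 5363 on the HCC4006ER array and 7527 on the HCC4006 array in its only probe set, a log2 fold of -0.49, within 1.5-fold. TIMP4 read 86.9 on the HCC4006ER array, under the level, and 177 on the HCC4006 array, at least 1.93-fold lower. TIMP3, which also inhibits ADAM17 and several ADAMTS proteases, was under the level in all 4 of its probe sets.

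**Figure D4:**
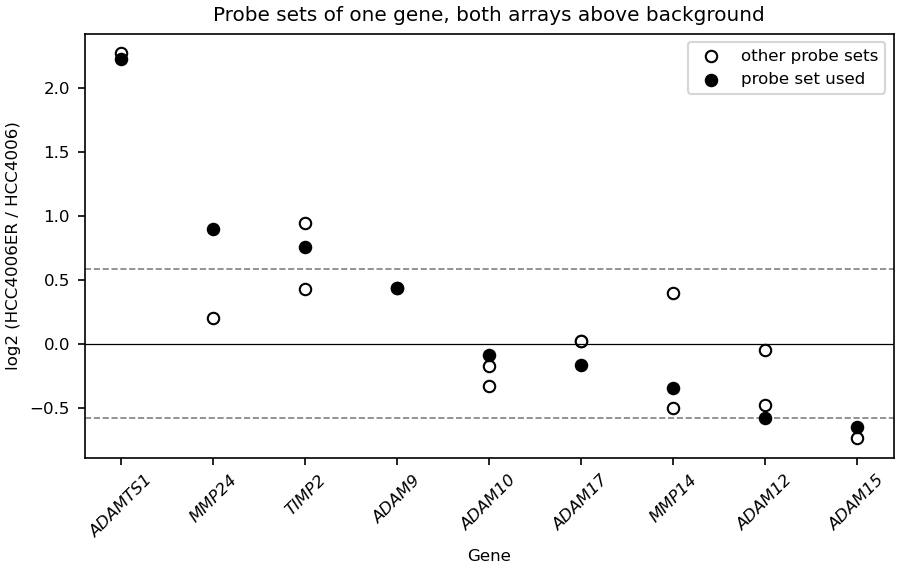
Log2 of the HCC4006ER signal over the HCC4006 signal for each probe set of the 9 members that have several above background on both arrays; filled circles are the probe sets used for the gene, open circles are the others, and the dashed lines mark 1.5-fold. All probe sets of 7 members lie on the same side of 0, and those of MMP14 and ADAM17 lie on both sides; the points of ADAM9 coincide.

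Proximal promoters of members past 2-fold are shown because these members carry the largest differences the promoter table allows, and because an AP-1 site next to a TATA box is a known feature of several MMP promoters. Of the 5 such members, ADAMTS12, ADAM19 and MMP7 matched the table and are shown, and ADAMTS1 and ADAMTS9 did not match. Each is given as the 250 bases before the start of the gene in RefSeq on GRCh38.p14, 5′ to 3′ on the strand of the gene. Capitals mark an AP-1 site (TGANTCA), the E-box CACCTG, which ZEB proteins can bind, the TATA box motif TATAAA or an SP1 site (GGGCGG), searched on both strands. No matches overlapped in these windows. ADAMTS12 lies on the minus strand at chr5:33891991-33892240, ADAM19 on the minus strand at chr5:157575776-157576025 and MMP7 on the minus strand at chr11:102530748-102530997.
ADAMTS12: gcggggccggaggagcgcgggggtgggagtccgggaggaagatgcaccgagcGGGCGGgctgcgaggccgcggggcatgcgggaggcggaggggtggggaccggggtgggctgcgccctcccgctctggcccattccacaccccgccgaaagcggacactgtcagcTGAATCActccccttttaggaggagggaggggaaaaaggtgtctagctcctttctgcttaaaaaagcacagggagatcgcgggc
ADAM19: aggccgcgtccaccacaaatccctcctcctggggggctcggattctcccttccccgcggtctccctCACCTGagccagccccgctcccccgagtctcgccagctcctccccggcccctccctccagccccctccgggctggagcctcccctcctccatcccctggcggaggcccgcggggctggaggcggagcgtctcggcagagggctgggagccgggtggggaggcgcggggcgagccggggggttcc
MMP7: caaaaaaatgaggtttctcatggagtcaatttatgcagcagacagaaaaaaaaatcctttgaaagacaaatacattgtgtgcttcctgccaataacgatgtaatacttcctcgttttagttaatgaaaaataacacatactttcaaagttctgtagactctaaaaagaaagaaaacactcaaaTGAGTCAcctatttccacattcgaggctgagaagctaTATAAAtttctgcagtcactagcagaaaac

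In the MMP7 window the AP-1 site lies 67 to 61 bases before the start and the TATA box 30 to 25 bases before it. The ADAMTS12 window has an SP1 site 198 to 193 bases and an AP-1 site 84 to 78 bases before the start, and the ADAM19 window has an E-box 184 to 179 bases before it. Promoter sequences matched 37 of the 64 members. An AP-1 site stood in 4 of these 37 and in 6.57% of all 35116 promoters, the E-box in 7 of 37 and in 17.5%, the TATA box in 7 of 37 and in 10.7%, and the SP1 site in 24 of 37 and in 42.6%. The members with an AP-1 site that passed 1.5-fold were ADAMTS12, higher on the HCC4006ER array, and MMP7, lower. These matches are letters in a window, and binding was not measured.

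Genes that act with these proteases were read from 7 lists. Among partners of ADAM10 and ADAM17, 2 of 7 above background were higher past 1.5-fold and none was lower, where 7.99% of all genes above background were higher and 11.2% lower. For the small numbers of genes in these lists such shares are descriptions. RHBDF2, which encodes an iRhom that carries ADAM17 to the cell surface, read 1092 on the HCC4006ER array and 624 on the HCC4006 array, 1.75-fold higher, and TSPAN14, a tetraspanin that escorts ADAM10, read 2352 on the HCC4006ER array and 1340 on the HCC4006 array, also 1.75-fold higher. Of the shed EGFR ligands, 3 of 5 measured were above background and none passed 1.5-fold. TGFA had a log2 fold of 0.36 and HBEGF of 0.38, and BTC was at least 1.22-fold lower.

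Among proprotein convertases, which activate many of these proteases by removing their prodomain, FURIN was 1.56-fold lower, at 215 on the HCC4006ER array and 336 on the HCC4006 array, and the 2 others above background lay within 1.5-fold. With equal array medians FURIN had a log2 fold of -0.51 and did not pass, while the other 2, MBTPS1 and PCSK7, passed as higher. The plasminogen system, which can activate several MMPs, had 2 of 5 lower and none higher, beside the same 11.2% and 7.99%. PLAT, the tissue plasminogen activator, read 181 on the HCC4006ER array and 1285 on the HCC4006 array, and SERPINE2, an inhibitor of plasminogen activators, was 1.56-fold lower. With equal array medians PLAT alone passed, and SERPINE2 had a log2 fold of -0.51. Of 7 other metalloprotease inhibitors and inducers above background, the proteoglycan SPOCK2 was 2.26-fold higher and LCN2, a partner of MMP9, was 2.58-fold lower. The membrane inhibitor RECK had a log2 fold of 0.09, and TFPI2 was 1.49-fold higher, just outside the threshold. With equal array medians SPOCK2 and TFPI2 passed as higher and LCN2 as lower.

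Of 3 ADAMTS relatives and substrates above background, versican (VCAN), a substrate of ADAMTS1 and ADAMTS9, was 1.90-fold lower, at 308 on the HCC4006ER array and 587 on the HCC4006 array, and the 2 others lay within 1.5-fold. Among 6 other secreted or membrane metalloproteases above background, 2 were higher and 2 were lower, beside 7.99% and 11.2% of all genes above background. ECE1, the endothelin-converting enzyme, was 2.08-fold higher and carboxypeptidase M (CPM) 1.62-fold higher, while neprilysin (MME) was at least 1.97-fold lower and aminopeptidase N (ANPEP) 1.62-fold lower. With equal array medians 3 of these 6 were higher and 1, MME, was lower. The split among all 11896 genes above background was then 1475 higher and 880 lower.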

How the data were processed

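A single Affymetrix HG-U133 array per line measured a mix of 3 RNA preparations of HCC4006ER or HCC4006 cells. The authors deposited 1 MAS5 signal intensity per probe set on a linear scale, without detection calls, and the submitters' processing notes also name GCOS 1.4. No values of other samples were used. Of 54675 probe sets, 41097 listed 1 gene symbol in the platform annotation and only these were used; all 64 member symbols matched a RefSeq table of GRCh38.p14 through their gene identifiers. The threshold of 1.5-fold follows the methods of the study. The log2 fold was the HCC4006ER signal over the HCC4006 signal. Every member above background was named, and of each neighbouring list up to 4 members past 1.5-fold; other genes of these lists were named after their values were seen. The members and lists were chosen with earlier results of these data known. The number of arrays limits the precision, and no p-value was computed. The gene step was tested on simulated data with known folds. The changed genes there lay well above the level on both arrays and had folds larger than 1.5. That test therefore does not cover calls near the level or near the threshold. Alternatives were other scalings, probe set choices, background levels and a 2-fold threshold. Promoter sequences came from RefSeq. Python 3.11.15, numpy 2.4.6, pandas 2.3.3 and matplotlib 3.10.9 were used.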

Additional observations from a re-analysis of the deposited data

How the results depend on the processing

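ADAMTS1, ADAMTS12, TIMP2, ADAM19 and MMP7, 5 of the 13 members past 1.5-fold, kept their direction and passed that size under every alternative scaling, probe set choice and background level that gave them a value. All alternatives reuse the same 2 arrays and give no independent support. MMP7 has only 1 probe set, so the choice of probe set could not change its value. ADAM19 and ADAMTS12 each have 1 probe set above the level, and most alternatives reuse it. The count of 6 higher members was 4 to 9 under these alternatives and 3 at a 2-fold threshold. The count of 7 lower members was 3 with equal array medians, 11 with the mean log2 fold of each gene's probe sets, 21 with no filter on low signals (64 members), 11 and 3 with the background level at the 90th and 99th percentile, and 2 at a 2-fold threshold. Among the 21 members above the level on both arrays, an alternative chosen after seeing the data, 4 were higher, beside 7.71% of all such genes, and 4 were lower, beside 10.2%. As a mean of its probe sets, 2 of them under the level on both arrays, ADAMTS6 had a log2 fold of -0.050, against 0.72. TIMP4 had a bound of -0.11 at the 99th percentile and did not pass. The counts by family and list with equal array medians were added after seeing the data. The median log2 fold of the members was -0.30 to -0.05 and stayed below 0. Over all genes it was also below 0 under every setting but equal array medians, where it was 0.10 beside -0.07 for the members. Over the 21 members above the level on both arrays it was -0.046, beside -0.028 over all such genes. Equal array medians turned the sign of ADAM10 and ADAMTS3, both within 1.5-fold. No paired analysis was possible because each cell line has 1 array.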
